A study of Homo sapiens with 10 samples.

Results

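H3K27ac, the acetylated form of lysine on histone H3 that marks active promoters and enhancers, was examined at the Eph receptors EPHA2, EPHA4, EPHB2, EPHB3 and EPHB4 and at the ephrins EFNA1, EFNA5 and EFNB2. The members are the 112 regions that the deposited annotation assigns to these 8 genes, out of 67387 annotated regions and 169637 regions in all. EFNA5 had 38 regions, EPHA2 25, EPHB4 14, EPHB2 10, EFNB2 9, EFNA1 6, EPHB3 6 and EPHA4 4. All 112 passed the filter on low counts.

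Eph receptors are the largest family of receptor tyrosine kinases, and their ligands, the ephrins, are held on the surface of neighbouring cells. Ephrin-A ligands carry a lipid anchor and mainly bind EphA receptors, whereas ephrin-B ligands span the membrane and mainly bind EphB receptors, with some crossing between the classes. Binding signals into both cells and changes adhesion, migration and sorting of cells at tissue borders. EPHA2 is widely expressed in epithelia and in lung carcinoma, where it has been studied beside EGFR.

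All libraries came from NCI-H1975, an established human lung adenocarcinoma line with mutant EGFR. The 3 treatments compared had 3 libraries each, which the labels call biological triplicates. DMSO cells spent 21 days without drug and then 3 days in DMSO. Osimertinib DTPs, the drug-tolerant persisters that survive this EGFR inhibitor, were exposed to 500 nM osimertinib for 24 days. Osimertinib DTP + AZD5153 cells had 21 days of 500 nM osimertinib and then 3 days of 150 nM AZD5153, a BET bromodomain inhibitor. The sample titles call this treatment a combo, but the labels do not say whether osimertinib was kept on during those last days. The comparison between both DTP groups may therefore differ in osimertinib as well as in AZD5153. A single pooled input library accompanied them.

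The 9 H3K27ac libraries held between 6263443 and 10463351 counts over all regions, and the input held 1870885, with a median of 10 per region. Replicate 3 of osimertinib DTP + AZD5153 stood apart. It had the fewest counts, its Spearman correlations with the other libraries of its group were 0.43 and 0.354, and 66.7% of its annotated counts lay in promoter regions. Replicate 2 of osimertinib DTP came next with 59.82%, against 40.34% to 45.94% in the other 7 libraries. At the members, this replicate 3 was the highest library of its group in 64 of 112 regions and the lowest in 42. The calls that rest on this group are therefore given with and without it. All 8 epithelial marker genes, among them KRT8 and EPCAM, had a promoter region, at a mean level of 11.5 to 70.6, and so did the lung lineage genes NKX2-1, SFTPB and NAPSA. Of 7 markers of blood, endothelial and stromal cells 3 had one, CD79A, CDH5 and COL1A1, while PTPRC, CD3E, PECAM1 and COL3A1 had none. These levels are CPM, the count scaled to the library's total over the tested regions after TMM normalisation, for the highest promoter region of each gene. COL1A1, a collagen of stromal cells, averaged 7.49 CPM in DMSO, 24.7 in DTPs and 18.8 in DTP + AZD5153, CDH5 of endothelial cells 13.5, 19.8 and 18.1, and CD79A of B cells 4.18, 0.525 and 1.35. The part of these signals in the results was not tested.

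The promoter of EPHA2 is shown because its regions are described one by one. That of EFNA5 is shown because its promoter sum, which also holds regions near an internal transcript start, passed the test. Both are the 250 bases that end at the RefSeq start site in GRCh38.p14, read 5′ to 3′ on the minus strand. EPHA2 occupies chr1:16156070-16156319 and EFNA5 chr5:107670938-107671187. Capitals mark matches to the letters GGAAG (ETS core), GGAATG (TEAD), GGGCGG (GC box) or TGANTCA (AP-1), searched on both strands.
EPHA2: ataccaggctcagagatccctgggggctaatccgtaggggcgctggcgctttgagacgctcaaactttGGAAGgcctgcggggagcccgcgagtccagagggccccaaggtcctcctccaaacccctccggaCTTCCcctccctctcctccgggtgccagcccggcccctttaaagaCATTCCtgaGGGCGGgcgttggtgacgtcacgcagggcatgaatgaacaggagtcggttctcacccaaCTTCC
EFNA5: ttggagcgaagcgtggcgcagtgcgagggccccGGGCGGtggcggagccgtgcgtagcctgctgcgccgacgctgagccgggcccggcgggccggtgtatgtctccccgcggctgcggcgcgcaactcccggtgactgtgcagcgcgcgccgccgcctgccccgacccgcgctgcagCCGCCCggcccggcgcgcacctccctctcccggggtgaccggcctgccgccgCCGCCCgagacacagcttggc
The EPHA2 window held 3 ETS core, 1 TEAD and 1 GC box match, and the EFNA5 window held 3 GC box matches. Of 34788 RefSeq promoters of this length, 65.1% held an ETS core, 11.9% a TEAD, 42.6% a GC box and 6.59% an AP-1 match. EPHB4 was the only other member with an ETS core match, with 2. Neither TEAD nor AP-1 letters were found in the windows of the 7 other members.

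Levels of single regions are in this TMM-scaled CPM. Over the 9 libraries the mean CPM of the 112 regions ran from 2.10 at an intron of EPHA4 to 54.8 at an internal promoter of EPHA2, with a median of 8.41. In bulk chromatin, fewer cells that carry the mark and less of it per cell cannot be told apart. The median promoter region of all genes had 11.9 CPM and the median annotated non-promoter region 6.53. Of the members, 21 regions lay within 1 kb of an annotated transcript start and form the promoter class, and 91 lay elsewhere. The authors' peak lists covered 72.3% (95% Clopper-Pearson interval 63.1% to 80.4%) of the members in the least covered library and 91.1% (84.2% to 95.6%) in the most covered. These intervals treat the regions of 1 library as independent, which neighbours in a gene are not, and do not measure spread between libraries. A peak was present in all 9 libraries at 44 regions.

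Between osimertinib DTPs and DMSO cells, 4 of 112 regions were higher and 5 were lower. All 4 that rose belonged to the ephrin EFNA5, and the 5 that fell belonged to EPHA2 and EPHB4. This is 3.57% and 4.46% of the members, against 5.58% of all 157919 tested regions that were higher and 5.13% that were lower, so the members as a set were called no more often than other regions. Of the 67387 annotated regions, from which the members come, 4705 were higher and 4867 lower. None of the 21 promoter-class regions was called. The called regions were of low to middling level, between 2.50 and 17.2 CPM. Same-numbered DMSO and DTP libraries were taken as paired from the data. With the replicate as a block, which the main fit leaves out, the counts were 3 higher and 5 lower. The number of calls turned on single libraries. It was 0 without DMSO replicate 2, without DMSO replicate 3 or without DTP replicate 3, 3 without DTP replicate 2, and 4 without DMSO replicate 1 or DTP replicate 1. DTP + AZD5153 replicate 3 is in neither group and enters this comparison through the shared estimate of spread, the filter and the TMM factors. Without it, 13 were higher and 13 lower. That is 23.2% of the members, against 26.8% of all regions in the same fit. Without TMM scaling 1 region was higher and 4 were lower, and with DESeq2 5 and 10.

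Between osimertinib DTP + AZD5153 and DMSO, 7 of 112 regions were higher and 9 were lower. The 7 belonged to EFNA5 and EPHA2, and the 9 to EFNB2, EPHA2, EPHB4 and EPHA4. These shares of 6.25% and 8.04% stood beside 9.05% and 9.01% of all regions. Of the 67387 annotated regions, 7215 were higher and 7475 lower. Without replicate 3 of the treated group the counts were 31 higher and 22 lower, 47.3% of the members against 35.7% of all regions, and 28 of the 31 were EFNA5 regions. The count was 9 without DMSO replicate 1, 3 without DMSO replicate 2, 6 without DMSO replicate 3 and 7 without DTP + AZD5153 replicate 1. Between both DTP groups no member was called by edgeR, in a comparison where 0.0% of all regions passed in either direction. At an unadjusted edgeR p under 0.05, 7 of the 112 members and 7013 of 157919 regions passed, and DESeq2 called no member either. Without replicate 3 of DTP + AZD5153 no member was called, beside 198 of 161758 regions. In that fit 39 of the 112 members and 32444 of all regions had an unadjusted p under 0.05. The 3 comparisons share their groups, so their values are not independent of each other. Leaving out TMM scaling moved the median log2 change of all regions from 0.15 to 0.06, from 0.06 to −0.09 and from 0.23 to −0.02 in DTPs over DMSO, DTP + AZD5153 over DTPs and DTP + AZD5153 over DMSO. It also turned the calls over all regions in the last comparison from 14286 higher and 14232 lower to 9564 higher and 15152 lower.

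**Figure D1:**
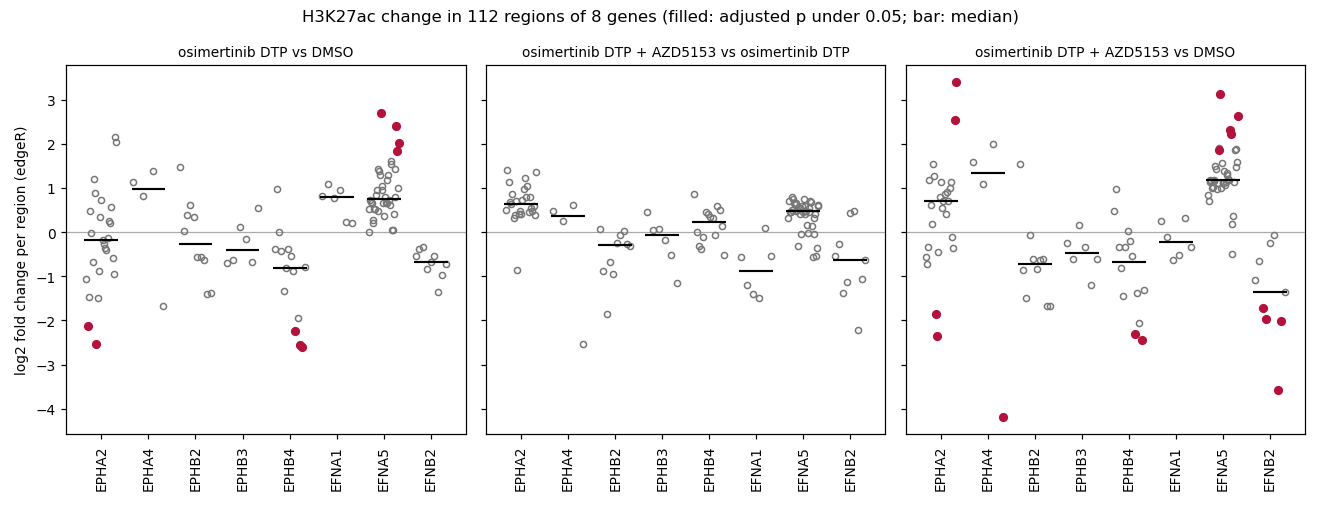
The vertical axis gives the edgeR log2 fold change of each of the 112 regions, grouped by gene along the horizontal axis, for the 3 comparisons. Filled points are regions with an adjusted p under 0.05 and bars are medians per gene; the medians of EFNA5 and EFNB2 lie on opposite sides of 0 against DMSO, and the middle panel holds no filled point.

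EPHA2, the receptor with the most regions, had 11 upstream and 14 downstream of its RefSeq start site, from −24.5 kb to 43.8 kb, with 12 inside the gene body. A peak was called in all 9 libraries at 11 of them. Its highest region was an internal promoter at chr1:16145384-16145885, 10.4 kb downstream of the start site. This region measured 32.7, 43.7 and 29.3 CPM in DMSO, 39.0, 83.9 and 34.2 in DTPs, and 57.3, 64.7 and 108.4 in DTP + AZD5153. All 3 DTP + AZD5153 libraries lay above the DMSO libraries, but the log2 change of 1.12 ± 0.51 (SE) did not pass (edgeR adjusted p = 0.135). Next came a pair of distal intergenic regions upstream. The one 19.7 kb upstream, chr1:16175547-16176048, measured 21.4, 32.4 and 24.4 CPM in DMSO, 20.9, 65.3 and 23.7 in DTPs, and 34.0, 43.3 and 100.1 in DTP + AZD5153. Its neighbour 17.4 kb upstream, chr1:16173211-16173712, averaged 34.5 ± 8.91, 34.2 ± 22.2 and 53.1 ± 15.4 CPM (SD, n = 3) in the same order of groups. In both, replicate 2 of the DTPs and replicate 3 of DTP + AZD5153 were the highest of their groups, and neither region passed a test.

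Just inside EPHA2, with its centre 411 bp downstream of the start site, chr1:16155407-16155908 measured 19.3, 28.7 and 24.9 CPM in DMSO, 14.9, 60.8 and 16.2 in DTPs, and 20.5, 22.5 and 84.3 in DTP + AZD5153. The adjacent chr1:16154749-16155250 had 14.3 ± 2.63, 23.7 ± 19.2 and 31.5 ± 20.3 CPM (SD, n = 3). In both regions the 2 promoter-heavy libraries were the highest of all, and the other 4 drugged libraries lay between 12.2 and 22.5 CPM. The fourth promoter-class region, just upstream and overlapping the printed sequence, was far lower at 5.36 ± 1.83, 2.92 ± 0.63 and 3.93 ± 1.12 CPM.

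The 2 EPHA2 regions that fell in DTPs were among the 11 upstream of the gene. The one 3.4 kb upstream, chr1:16159250-16159751, measured 3.90, 7.02 and 4.63 CPM in DMSO, 0.67, 0.97 and 1.01 in DTPs, and 1.3, 1.63 and 1.35 in DTP + AZD5153. The drugged groups did not overlap DMSO, and no library of either had a peak there while all 3 DMSO libraries did. The log2 change was −2.54 ± 0.60 (SE, edgeR adjusted p = 0.0137) in DTPs, 5.81-fold lower, and −1.85 ± 0.58 (adjusted p = 0.0344) in DTP + AZD5153. Behind these values stood 43 to 68 counts in DMSO and 7 to 10 in DTPs. The region directly beside it, chr1:16158725-16159226, measured 5.62, 8.16 and 5.23 CPM in DMSO, 2.2, 2.64 and 1.91 in DTPs, and 1.3, 1.86 and 0.39 in DTP + AZD5153. It passed in DTP + AZD5153 with a log2 change of −2.36 ± 0.62 (adjusted p = 0.0145), while in DTPs the change of −1.49 ± 0.59 did not pass (adjusted p = 0.110). Both regions overlap EPHA2-AS1, an antisense gene, and ChIP reads carry no strand. Further out, 23.2 kb upstream at chr1:16179025-16179526, DMSO had 5.17, 6.09 and 5.63 CPM, DTPs 1.43, 0.42 and 1.91, and DTP + AZD5153 2.71, 2.21 and 5.41. The DTP change was −2.13 ± 0.63 (adjusted p = 0.0378), whereas that of DTP + AZD5153 over DMSO was −0.73 ± 0.60 (adjusted p = 0.438). The difference between both drugged groups here, 1.4 on the log2 scale, was not called. The DTP calls at 3.4 kb and 23.2 kb held in 4 and 3 of 9 fits that each left out 1 library, with the highest adjusted p without DMSO replicate 2 (0.111 and 0.150). Those of DTP + AZD5153 at 3.4 kb and 2.9 kb held in 2 and 7 of 9, with the highest adjusted p without the same library (0.174 and 0.0811). Without replicate 3 of DTP + AZD5153 their adjusted p was 0.0142 and 0.0055, and 4 upstream regions were lower in DTPs. In that fit 24.0% of the 25 EPHA2 regions were called in DTPs in either direction, beside 26.8% of all regions.

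Of the 14 EPHA2 regions downstream of the start site, 2 were higher in DTP + AZD5153 than in DMSO and none was called in DTPs, where 7 changes were positive and 7 negative. In DTP + AZD5153 over DMSO 2 of the 14 changes were negative, and 9 of 14 without replicate 3, with a median of −0.18. The distal region 43.8 kb downstream of the start site, beyond the end of the gene at chr1:16111994-16112495, measured 1.63, 0.62 and 1.31 CPM in DMSO, 1.05, 6.96 and 6.85 in DTPs, and 6.71, 8.73 and 22.8 in DTP + AZD5153. All 3 DTP + AZD5153 libraries had a peak and none of the DMSO libraries did. The log2 change over DMSO was 3.40 ± 0.76 (SE, edgeR adjusted p = 0.0069), 10.5-fold, and 2.67 (adjusted p = 0.0019) without replicate 3. Its neighbour at chr1:16113076-16113577 measured 0.91, 0.93 and 1.11 CPM in DMSO, 0.76, 8.91 and 3.73 in DTPs, and 4.51, 3.72 and 9.28 in DTP + AZD5153. It had a log2 change of 2.54 ± 0.75 (adjusted p = 0.0270), and 2.05 (adjusted p = 0.0200) without replicate 3. In DTPs neither passed (adjusted p = 0.0838 and 0.0712), and replicate 1 of the DTPs lay within the DMSO range at the first and below it at the second. The calls held in 8 and 6 of 9 fits that left out a library, and were lost without DMSO replicate 2 (adjusted p = 0.0565 and 0.111).

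**Figure D2:**
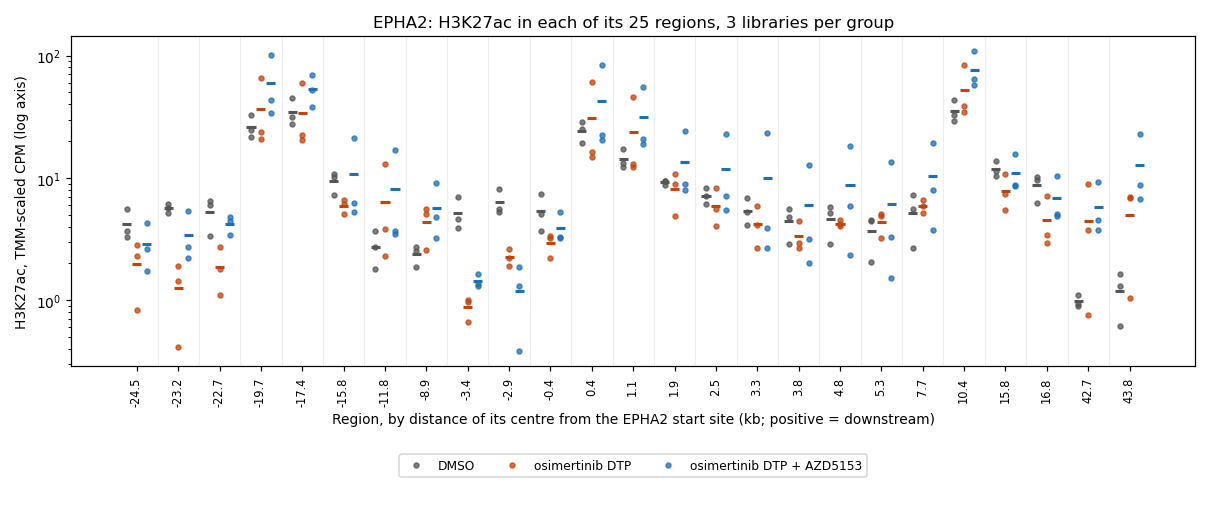
H3K27ac of the 25 EPHA2 regions in CPM on a log axis, ordered by distance from the start site, with 1 point per library and a bar for each group mean. At −3.4 kb every DMSO point lies above the drugged points, at 43.8 kb every DTP + AZD5153 point lies above the DMSO points, and in the 5 strongest regions 1 library each of the DTP and DTP + AZD5153 groups stands above the others.

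Of the remaining 14 EPHA2 regions none was called in any comparison. Their mean levels ran from 3.01 to 10.3 CPM. Replicate 3 of DTP + AZD5153 was the highest of its group in 22 of all 25 EPHA2 regions and replicate 2 of the DTPs in 15. Sums over the regions of a gene have their own scale, CPM of the total over annotated regions with TMM factors fitted to the sums, so they do not add up from the levels of single regions. On it, the 4 promoter regions held 103, 112 and 111 CPM in DMSO, 105, 163 and 111 in DTPs, and 136, 140 and 249 in DTP + AZD5153. The 21 other regions summed to 229, 205 and 250 CPM, then 153, 193 and 223, and then 216, 225 and 413. Neither EPHA2 sum passed in any comparison. The promoter sum of DTP + AZD5153 over DMSO had a log2 change of 0.69 ± 0.31 (edgeR adjusted p = 0.173), and 0.37 without replicate 3. The share of EPHA2 counts that lay in its promoter class was 30.8% to 35.3% in DMSO, 33.3% to 45.9% in DTPs and 37.6% to 38.5% in DTP + AZD5153.

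EPHA4, a receptor that binds ligands of both classes, had a single non-promoter region, in an intron at chr2:221443795-221444296. It held 42, 64 and 35 counts in DMSO, 18, 8 and 15 in DTPs, and 3, 3 and 0 in DTP + AZD5153. The groups formed 3 separate ranges, and only DMSO libraries had a peak there. The log2 change of DTP + AZD5153 over DMSO was −4.19 ± 0.78 (SE, edgeR adjusted p = 0.0026), with a size that depends on how counts near 0 are treated, and it was called in 9 of 9 fits that left out a library. Without replicate 3 it was −3.80 (adjusted p = 0.0002). The change in DTPs, −1.66 ± 0.64, did not pass (adjusted p = 0.103). Its 3 promoter regions gave no call. The highest, chr2:221573133-221573634, measured 6.35, 4.54 and 3.72 CPM in DMSO, 6.02, 23.2 and 2.82 in DTPs, and 10.1, 5.59 and 28.8 in DTP + AZD5153, so the 2 promoter-heavy libraries again gave the highest values.

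EPHB2, a receptor for ephrin-B ligands, had 1 promoter and 9 intronic regions, of which none was called. Its promoter region, chr1:22711480-22711981, measured 2.00, 1.96 and 2.01 CPM in DMSO, 3.25, 10.4 and 3.12 in DTPs, and 1.5, 2.21 and 14.1 in DTP + AZD5153. The highest intronic region, 116.5 kb into the gene at chr1:22827095-22827596, averaged 21.7 ± 9.22, 14.1 ± 8.55 and 14.3 ± 8.34 CPM (SD, n = 3) in DMSO, DTPs and DTP + AZD5153. Without DTP + AZD5153 replicate 3, 1 EPHB2 region was called higher and 2 lower in DTPs, and 3 lower in DTP + AZD5153, beside 26.8% and 35.7% of all regions called in these fits.

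EPHB3, another receptor of the B class, had 6 regions and no call. Its promoter region, chr3:184561758-184562259, measured 4.17, 5.68 and 5.33 CPM in DMSO, 1.05, 7.24 and 1.21 in DTPs, and 1.4, 1.4 and 10.4 in DTP + AZD5153. The promoter-heavy library was above DMSO in each drugged group and both other libraries of that group were below it. On the scale of the sums the same counts gave 6.31, 6.54 and 8.18 CPM in DMSO and 1.62, 6.09 and 2.02 in DTPs, with all DTP libraries below DMSO. The highest intronic region, chr3:184566470-184566971, averaged 23.0 ± 6.98, 20.6 ± 7.88 and 18.2 ± 14.6 CPM. Without DTP + AZD5153 replicate 3, 2 of 6 EPHB3 regions were lower in DTP + AZD5153 than in DMSO, a share of 33.3% beside 35.7% of all regions.

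EPHB4, the receptor of EFNB2 known from blood vessel growth, had 3 of its 14 regions called lower in DTPs. All 3 lay beyond its 3′ end, and neither EPHB4 sum passed in DTPs over DMSO (edgeR adjusted p = 0.327 and 0.0717). The region at chr7:100794098-100794599 measured 10.8, 22.3 and 15.4 CPM in DMSO, 3.63, 3.06 and 1.31 in DTPs, and 2.91, 2.68 and 3.29 in DTP + AZD5153. Its log2 change was −2.59 ± 0.58 (SE, edgeR adjusted p = 0.0109) in DTPs and −2.45 ± 0.58 (adjusted p = 0.0089) in DTP + AZD5153. RefSeq places this region in ZAN, not in EPHB4, and the input held 44 counts there, the most of any member. Beside it, chr7:100794912-100795413 measured 5.80, 7.54 and 9.05 CPM in DMSO, 1.05, 1.67 and 1.11 in DTPs, and 0.90, 0.35 and 4.45 in DTP + AZD5153. Its DTP change was −2.55 ± 0.73 (adjusted p = 0.0346), and that of DTP + AZD5153 did not pass (adjusted p = 0.0582). Nearer the gene, chr7:100800699-100801200 measured 14, 19.7 and 20.4 CPM in DMSO, 4.02, 3.76 and 3.63 in DTPs, and 2.61, 1.75 and 6.76 in DTP + AZD5153. This gave −2.24 ± 0.59 (adjusted p = 0.0224) and −2.31 ± 0.59 (adjusted p = 0.0136). In all 3 regions every library of both drugged groups lay below every DMSO library. In the order given, the DTP calls held in 6, 3 and 4 of 9 fits that left out a library, with the highest adjusted p without DMSO replicate 2 (0.0884), DTP replicate 3 (0.151) and DMSO replicate 2 (0.114). The DTP + AZD5153 calls at the first and last held in 8 and 5 of 9, with the highest adjusted p without DMSO replicate 2 (0.0609) and DTP + AZD5153 replicate 1 (0.0646). Without replicate 3 of DTP + AZD5153 these changes were −2.53 and −3.04 (adjusted p = 0.0011 and 0.0001). EPHB4 then had 5 lower regions in DTPs, against 3 with it, and 8 in DTP + AZD5153, against 2, so most of its calls in the latter depend on leaving that library out. The 5 and 8 are 35.7% and 57.1% of its 14 regions, beside 26.8% and 35.7% of all regions called in either direction in that fit.

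Inside the EPHB4 gene body none of its 5 regions was called. The region at its 3′ UTR, chr7:100803187-100803688, was its strongest, with 34.3 ± 6.14, 23.5 ± 11.6 and 29.8 ± 25 CPM (SD, n = 3). The promoter region just upstream of its start site, chr7:100827587-100828088, had 18.9 ± 6.09, 18.9 ± 17.1 and 15.1 ± 8.54 CPM, and the neighbouring gene SLC12A9 overlaps it. Neither passed a test. In 13 of 14 EPHB4 regions the log2 change in DTPs was negative, with a median of −0.81, against 0.15 for all regions.

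Among the ligands, EFNA1, an ephrin-A that binds EPHA2, had 6 regions and no call. The strongest, chr1:155129509-155130010 at 1.88 kb into the gene, measured 34.8, 50.1 and 36.8 CPM in DMSO, 31.6, 68.9 and 42.3 in DTPs, and 36.3, 48.1 and 68.0 in DTP + AZD5153. Upstream at −1.91 kb, chr1:155125717-155126218 averaged 5.94 ± 1.56, 12.7 ± 6.62 and 5.61 ± 4.11 CPM. Its DTP change over DMSO did not pass (edgeR adjusted p = 0.285), and the libraries of these groups overlapped. All 6 log2 changes in DTPs were positive, between 0.19 and 1.09, and 5 of 6 were negative in DTP + AZD5153 over DTPs, with none past the threshold.

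EFNA5, a lipid-anchored ligand of EphA receptors encoded by a long gene, held all 4 member regions that rose in DTPs and 5 of the 7 that rose in DTP + AZD5153. Of its 38 regions, 34 lay inside the gene body, mostly in the long first intron. In DTPs over DMSO 37 of 38 log2 changes were positive, with a median of 0.76 against 0.15 for all regions. Without DTP + AZD5153 replicate 3, 10 EFNA5 regions were higher in DTPs and 28 in DTP + AZD5153, or 26.3% and 73.7% of the 38. Of all 161758 regions in that fit, 22942 and 29786 were higher, and 26.8% and 35.7% were called in either direction. The neighbouring EFNA5 regions share a gene and are not independent. In 20 of 38 regions every DTP library lay above every DMSO library. How common such a separation is over all regions was not counted.

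The largest EFNA5 rise in DTPs was in the first intron at chr5:107555999-107556500, 114.7 kb into the gene. This region measured 2.81, 2.48 and 4.22 CPM in DMSO, 10.8, 18.8 and 32.6 in DTPs, and 23.6, 45.5 and 13.9 in DTP + AZD5153. No drugged library overlapped DMSO. The log2 change was 2.70 ± 0.63 (SE, edgeR adjusted p = 0.0130) in DTPs and 3.12 ± 0.64 (adjusted p = 0.0043) in DTP + AZD5153, and the latter was called in 9 of 9 fits that left out a library. It was 3.43 (adjusted p = 4.2e-05) without replicate 3. The DTP call held in 5 of 9, with the highest adjusted p without DMSO replicate 2 (0.101). At the far end of the gene, the 3′ UTR region chr5:107380625-107381126 measured 2.00, 0.72 and 1.01 CPM in DMSO, 4.30, 4.45 and 6.55 in DTPs, and 8.02, 8.26 and 6.96 in DTP + AZD5153. Here the groups formed 3 rising ranges without overlap. The changes over DMSO were 2.02 ± 0.58 (adjusted p = 0.0324) and 2.62 ± 0.58 (adjusted p = 0.0064), held in 4 and 7 of 9 fits that left out a library with the highest adjusted p without DMSO replicate 2 (0.177 and 0.0574), and all 3 libraries of both drugged groups but no DMSO library had a peak. Without replicate 3 the DTP + AZD5153 change was 2.68 (adjusted p = 0.0004).

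Close by, chr5:107383530-107384031 measured 1.27, 0.52 and 0.80 CPM in DMSO, 5.93, 3.34 and 4.73 in DTPs, and 5.01, 4.07 and 0.39 in DTP + AZD5153. The DTP change of 2.41 ± 0.74 passed (edgeR adjusted p = 0.0442), and in DTP + AZD5153 replicate 3 fell below every DMSO library. The fourth region called in DTPs, chr5:107382345-107382846, measured 2.18, 1.76 and 1.61 CPM in DMSO, 7.36, 2.78 and 9.77 in DTPs, and 5.31, 5.12 and 5.03 in DTP + AZD5153. Its log2 change was 1.84 ± 0.58 (adjusted p = 0.0483), and with the replicate as a block it did not pass (adjusted p = 0.0609). Both DTP calls held in 3 of 9 fits that left out a library, with the highest adjusted p without DMSO replicate 2 (0.195) and DMSO replicate 3 (0.213).

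In DTP + AZD5153 the first intron added 3 further calls. At 215.8 kb, chr5:107454885-107455386 measured 4.35, 5.99 and 3.82 CPM in DMSO, 10.4, 14.6 and 16.4 in DTPs, and 26.4, 37.0 and 2.90 in DTP + AZD5153. Replicates 1 and 2 were the highest of all 9 libraries and replicate 3 the lowest. Its neighbour chr5:107455507-107456008 held 20.0, 33.7 and 3.67 CPM in DTP + AZD5153 against 2.81 to 4.75 in DMSO, and chr5:107556806-107557307 held 31.3, 49.2 and 10.4 against 6.26 to 10.5. The log2 changes were 2.23 ± 0.70, 2.30 ± 0.69 and 1.85 ± 0.59 (edgeR adjusted p = 0.0359, 0.0293 and 0.0368), and without replicate 3 they were 2.74, 2.78 and 2.25. In the same order the calls held in 3, 4 and 3 of 9 fits that left out a library, with the highest adjusted p without DMSO replicate 3 (0.153), DMSO replicate 1 (0.121) and DTP + AZD5153 replicate 2 (0.171).

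The split of this group ran through the gene. Replicate 3 was the lowest of the DTP + AZD5153 libraries in 31 of the 34 EFNA5 regions outside promoters, while replicates 1 and 2 both lay above all DMSO libraries in 35 of 38 regions. Neither count was made over all regions. Summed over the 34 regions, EFNA5 held 287, 291 and 322 CPM in DMSO, 463, 331 and 785 in DTPs, and 758, 1029 and 226 in DTP + AZD5153. The log2 change over DMSO was 1.16 ± 0.52 (SE, edgeR adjusted p = 0.165) with all libraries and 1.60 (adjusted p = 0.0112) without replicate 3. The promoter sum was 89.1, 81.7 and 110 CPM in DMSO, 133, 140 and 165 in DTPs, and 162, 186 and 207 in DTP + AZD5153. Every drugged library lay above every DMSO library. DTP + AZD5153 over DMSO passed with 0.98 ± 0.25 (adjusted p = 0.0258), or 0.92 (adjusted p = 0.0170) without replicate 3, and held in 5 of 9 fits that left out a library, with the highest adjusted p without DMSO replicate 2 (0.133). This sum also holds chr5:107388105-107388606 and chr5:107389226-107389727, which lie near an internal transcript start, 283 and 281 kb into the gene. In these regions replicate 3 of DTP + AZD5153 measured 4.06 and 2.51 CPM, below every DMSO library. The promoter region just upstream of the start site, chr5:107671120-107671621, which overlaps the printed sequence, measured 24.1, 26.9 and 28.7 CPM in DMSO, 29.9, 65.7 and 31.9 in DTPs, and 36.5, 41.2 and 96.3 in DTP + AZD5153, and did not pass alone (adjusted p = 0.153). The promoter class took 21.9% to 25.5% of EFNA5 counts in DMSO, 15.3% and 17.6% in replicates 2 and 1 of DTP + AZD5153, and 47.7% in replicate 3.

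**Figure D3:**
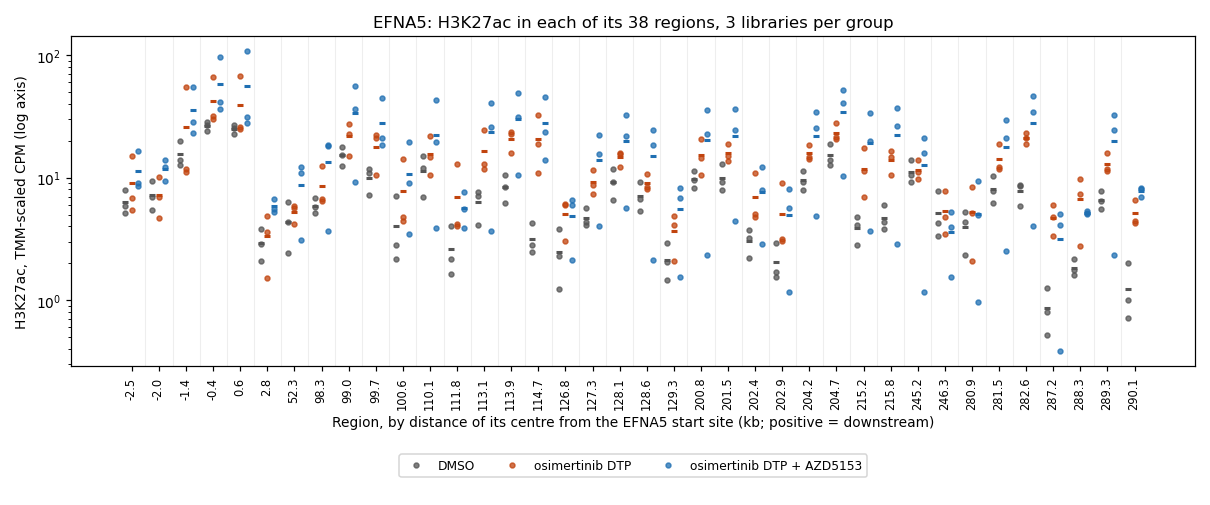
H3K27ac of the 38 EFNA5 regions in CPM on a log axis, ordered by distance from the start site, with 1 point per library and a bar per group mean. In 20 of 38 regions all DTP points lie above all DMSO points, and in 33 of 38 the lowest DTP + AZD5153 point is replicate 3. These counts were not made over all regions.

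EFNB2, the transmembrane ligand of EPHB4, lost H3K27ac in DTP + AZD5153. All 9 of its log2 changes were negative in both drugged groups against DMSO, with medians of −0.67 in DTPs and −1.35 in DTP + AZD5153, and 4 regions were called in DTP + AZD5153. The 4 are 44.4% of its regions, beside 9.01% of all regions called lower. Without replicate 3, 6 were called in DTP + AZD5153 and 1 in DTPs, or 66.7% and 11.1% beside 35.7% and 26.8% of all regions. In that fit 2 uncalled changes in DTP + AZD5153 over DMSO turned from −0.06 and −0.24 to 0.40 and 0.22. The largest fall was 62.4 kb from its start site and beyond the end of the gene, at chr13:106472968-106473469, where RefSeq has LOC105370346. This region measured 13.4, 15.3 and 15.2 CPM in DMSO, 5.26, 4.45 and 7.25 in DTPs, and 1.5, 0.47 and 1.74 in DTP + AZD5153. The groups formed 3 falling ranges, and no DTP + AZD5153 library had a peak. Its log2 change over DMSO was −3.58 ± 0.62 (SE, edgeR adjusted p = 0.0019), 11.9-fold lower, called in 9 of 9 fits that left out a library, and −3.86 (adjusted p = 3.7e-05) without replicate 3. The DTP change of −1.37 ± 0.55 did not pass (adjusted p = 0.120). The neighbouring chr13:106472300-106472801 measured 10.3, 19.8 and 12.3 CPM in DMSO, 4.30, 9.05 and 8.46 in DTPs, and 3.11, 5.70 and 1.55 in DTP + AZD5153, a change of −2.01 ± 0.60 (adjusted p = 0.0285).

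Inside EFNB2, the intronic chr13:106531011-106531512 measured 7.71, 7.75 and 8.35 CPM in DMSO, 4.21, 3.90 and 5.24 in DTPs, and 2.51, 2.33 and 1.16 in DTP + AZD5153. Its DTP + AZD5153 change was −1.96 ± 0.55 (edgeR adjusted p = 0.0200). The region 3.04 kb from the start site, chr13:106532376-106532877, measured 8.07, 9.50 and 10.7 CPM in DMSO, 6.69, 7.24 and 8.36 in DTPs, and 4.01, 2.33 and 2.13 in DTP + AZD5153, a change of −1.72 ± 0.53 (adjusted p = 0.0327). In these 2 regions and both distal ones every DTP + AZD5153 library was below every DMSO library. In the order given, the 3 smaller calls held in 6, 5 and 2 of 9 fits that left out a library, with the highest adjusted p without DMSO replicate 2 (0.145), DMSO replicate 3 (0.0823) and DMSO replicate 3 (0.131). Without replicate 3 of DTP + AZD5153 they were −1.69, −1.72 and −1.57 (adjusted p = 0.0145, 0.0083 and 0.0143). Its strongest region, chr13:106534087-106534588 at 1.33 kb, was not called, with 17.6, 18.4 and 14.9 CPM in DMSO, 10.1, 22.8 and 6.24 in DTPs, and 5.21, 4.31 and 23.2 in DTP + AZD5153. Nor was its promoter region, chr13:106534674-106535175, at 7.48 ± 0.76, 5.12 ± 1.53 and 3.65 ± 4.21 CPM (SD, n = 3).

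With counts summed per gene and class, promoter or other, none of the 16 sums passed in DTPs over DMSO, where 9.19% of all 21677 sums did. At an unadjusted p under 0.05, 4 of the 16 passed, and DESeq2 called 2. Without DTP + AZD5153 replicate 3, 4 sums were lower, against 23.1% of all sums called: EPHA4 outside its promoter, EPHB4 in both classes and EFNB2 outside its promoter. None passed between both DTP groups, where 0.0% of all sums did, with 2 of the 16 at an unadjusted p under 0.05 and none by DESeq2. Leaving out DTP + AZD5153 replicate 3 gave no call there either. In that fit 6 of the 16 and 4342 of 21677 sums had an unadjusted edgeR p under 0.05. In DTP + AZD5153 over DMSO 3 passed, against 15.9% of all sums: EFNA5 promoters, EFNB2 outside its promoter and the single EPHA4 intron region. The EFNB2 sum was 114, 120 and 126 CPM in DMSO, 69.5, 51.4 and 90.6 in DTPs, and 50.4, 55.2 and 34.0 in DTP + AZD5153. Its log2 change was −1.37 ± 0.29 (SE, edgeR adjusted p = 0.0135), lost without DMSO replicate 3 (0.0605), and −1.16 (0.0121) without DTP + AZD5153 replicate 3. Without DTP + AZD5153 replicate 3, 8 sums passed, against 29.3% of all sums, with both EFNA5 classes higher and EPHA4 outside its promoter, the EPHB3 promoter, both EPHB4 classes and both EFNB2 classes lower. Without DMSO replicate 2 or DMSO replicate 3 only 1 passed.

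No sum of the other members passed with all libraries. EPHB4 outside its promoters held 195, 223 and 267 CPM in DMSO, 132, 104 and 107 in DTPs, and 122, 94.5 and 184 in DTP + AZD5153, with the drugged libraries all below DMSO and a DTP change of −0.996 ± 0.30 (edgeR adjusted p = 0.0717). EPHB2 outside its promoter held 124, 141 and 186 CPM, then 93.4, 83.9 and 176, and then 44.8, 106 and 73.2. Its change of −1.01 ± 0.40 in DTP + AZD5153 did not pass (adjusted p = 0.119), although all 3 libraries lay below DMSO. EFNA1 outside its promoters held 9.33, 11.2 and 15.4 CPM in DMSO, 17.7, 20.0 and 28.5 in DTPs, and 5.84, 6.87 and 16.7 in DTP + AZD5153. The DTP libraries were the highest, and neither difference from them passed (adjusted p = 0.291 over DMSO and 0.912 between both DTP groups).

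**Figure D4:**
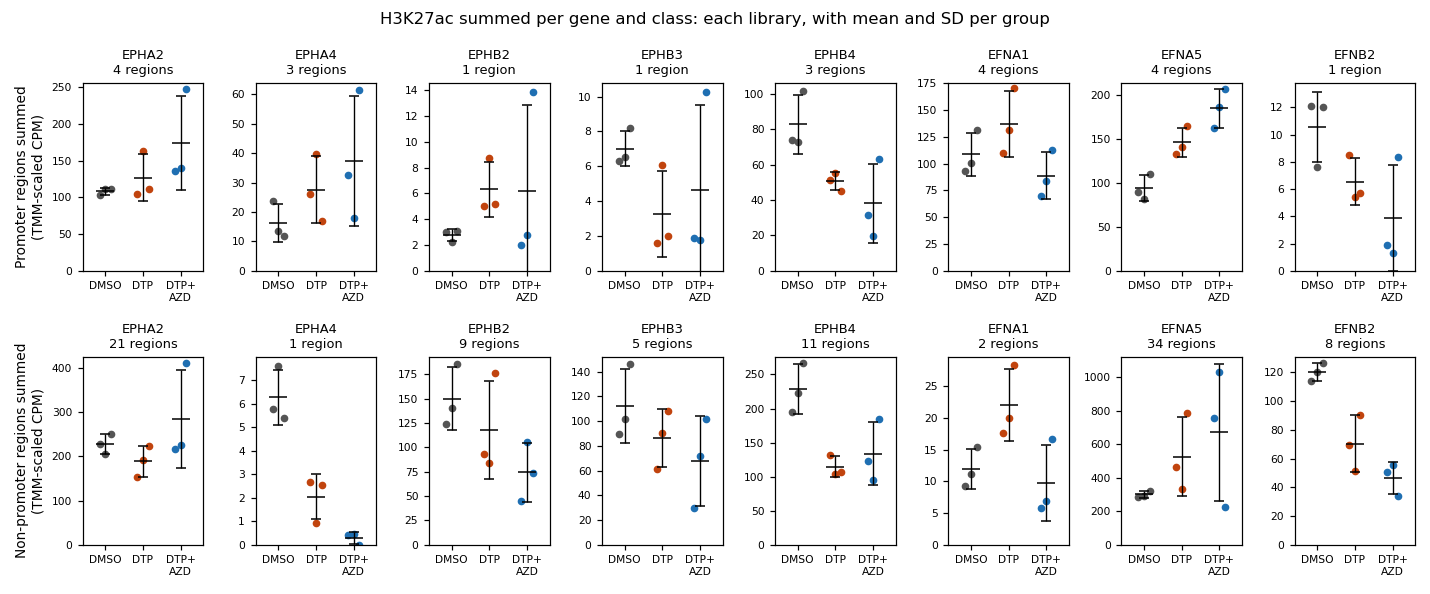
CPM on the scale of the sums, over the promoter regions (top) and other regions (bottom) of each gene, with a point per library and the mean with its SD (n = 3, bars cut at 0) for DMSO, DTP and DTP + AZD5153. EFNB2 outside its promoter steps down from 114 to 126 CPM in DMSO to 34.0 to 55.2 in DTP + AZD5153, and EFNA5 outside its promoters spreads from 226 to 1029 CPM within DTP + AZD5153.

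Of the 14 other Eph and ephrin genes, 6 had annotated regions, giving 7 sums. In DTPs over DMSO 1 was higher and 1 lower, or 28.6% of 7 beside 9.19% of all sums, and in DTP + AZD5153 over DMSO 2 were lower, beside 15.9%. EPHB1, a receptor of the B class, fell over its 4 non-promoter regions from 40.0 ± 8.41 CPM in DMSO to 3.91 ± 2.25 in DTPs and 2.51 ± 0.77 in DTP + AZD5153 (SD, n = 3). Its log2 changes over DMSO were −3.36 ± 0.49 and −3.98 ± 0.51 (SE, edgeR adjusted p = 0.0087 and 0.0030), called in 7 and 9 of 9 fits that left out a library, with the highest adjusted p without DMSO replicate 2 (0.0592 and 0.0198). EFNA2, an ephrin-A, rose in DTPs from 3.27 ± 0.68 to 13.3 ± 2.43 CPM at its single region, a log2 change of 2.01 ± 0.53 (adjusted p = 0.0449), and stood at 2.81 ± 2.18 in DTP + AZD5153. With the replicate as a block the EFNA2 change did not pass (adjusted p = 0.101), and it held in 3 of 9 fits that left out a library, with the highest adjusted p without DMSO replicate 3 (0.193). EPHA1 passed in DTP + AZD5153 with a log2 change of −2.39 ± 0.70 (adjusted p = 0.0464), and this call was lost in 8 of 9 fits that left out a library. EPHA3, EPHA5, EPHA6, EPHA7, EPHA8, EPHB6, EFNA4 and EFNB3 had no annotated region. The median log2 change of the 7 sums in DTPs was −0.05, beside 0.10 for all sums.

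Of 23 genes that act with Eph receptors, 21 had regions and gave 37 sums, of which 1 was higher and 2 were lower in DTPs and 1 was higher and 4 were lower in DTP + AZD5153, both against DMSO. These are 8.11% and 13.5% of the 37, beside 9.19% and 15.9% of all sums, so the list was called no more often than other genes. FYN, a Src-family kinase, rose outside its promoter from 1.3 ± 0.67 CPM to 9.27 ± 3.10 and 24.2 ± 14.6. NCK2, an adaptor of phosphorylated receptors, fell at 1 region outside its promoter from 12 ± 3.40 to 1.14 ± 0.93 and 0.21 ± 0.08 CPM. NGEF, which EphA receptors activate, fell at its promoters from 106 ± 9.59 to 43.3 ± 6.09 and 57.9 ± 9.71 CPM. With the replicate as a block, the DTP calls of FYN and NGEF did not pass (edgeR adjusted p = 0.0650 and 0.0516) and that of NCK2 did (0.0438). The DTP calls of FYN, NCK2 and NGEF held in 3, 6 and 6 of 9 fits that left out a library, and those in DTP + AZD5153 in 9, 9 and 3, each with the highest adjusted p without DMSO replicate 2 or, for FYN in DTP + AZD5153, DMSO replicate 3. In DTP + AZD5153, VAV2 fell outside its promoter by 1.46 and CBL by 2.65 on the log2 scale (adjusted p = 0.0163 and 0.0131), each called in 8 of 9 such fits. All 5 DTP + AZD5153 calls passed without its replicate 3. None of these 7 and 37 sums passed between both DTP groups.

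Across the 9 libraries, the non-promoter sum of EPHA2 was most like those of JPH3, SLCO4A1, B3GNT7, PICK1 and IER5L among 8674 genes, with Pearson r of log2 CPM of 0.97, 0.93, 0.90, 0.90 and 0.87. These correlations are a description over libraries that share conditions and differ in promoter share. Among the members, EPHB4 stood at 0.34, EPHB3 at 0.32, EFNA1 at 0.02, EPHB2 at −0.08, and EFNA5 and EFNB2 both at −0.36.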

How the data were processed

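H3K27ac ChIP-seq of NCI-H1975 cells was taken as deposited. The authors deposited raw read counts per 502-bp region for 9 H3K27ac libraries and 1 pooled input, and peak lists per library with fold enrichment as a ratio and −log10 p and q values. Of the peak lists only peak positions and −log10 q were used. The submitters' processing notes name BWA 0.7.17, MACS2 2.2.6, featureCounts 2.0.0, ChIPseeker 1.29.1 and hg38, and the region annotation is taken from the authors' table. Sequences and start sites come from RefSeq, GRCh38.p14, in which all 8 genes were found.

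Counts of all regions were tested in R 4.3.3 with edgeR 4.0.16 (TMM, filterByExpr with a count minimum of 10, robust quasi-likelihood fit over 9 libraries, Benjamini-Hochberg over all regions, threshold 0.05), and counts summed per gene and class over annotated regions in the same way, with library totals and TMM factors of their own, so levels of sums and of single regions are on different scales. Errors are SE for log2 changes and SD for levels. The input was neither subtracted nor tested. CPM values use totals over regions, so they hold no measure of overall acetylation. Alternatives were DESeq2 1.42.0, other scalings and filters, a replicate block, 6-library fits, a stricter threshold and leaving out each library. Same-numbered DMSO and DTP libraries deviated together (r = 0.329, 0.347 and 0.326), so these were taken as paired from the data. Totals of 6263443 to 10463351 counts limit precision at regions of few reads, and intervals of shares cover counting error only. The scripts were tested on simulated data. The named regions are, per gene, the highest promoter and non-promoter region and every called one, and the 5 highest of EPHA2. The members, gene lists and tests were chosen with earlier results of these data known. Leaving out both promoter-heavy libraries was added after seeing the data. No per-library fold or p from the peak lists is reported.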

Additional observations from a re-analysis of the deposited data

How the results depend on the processing

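Calls of single regions depended on the libraries in the fit more than on scaling. In DTPs over DMSO the 9 called regions became 5 without TMM, 15 with DESeq2, 27 with the 6 libraries of both groups, 32 without both promoter-heavy libraries and 0 at an adjusted p under 0.01, and leaving out 1 library gave 0 to 26. In DTP + AZD5153 over DMSO the 16 became 9 with 6 libraries, 63 without both promoter-heavy libraries and 6 at the stricter threshold, and 3 to 53 with 1 library left out. Between both DTP groups 0 became 3, all lower, without both promoter-heavy libraries. Of the gene sums, the 0 in DTPs over DMSO became 2 with DESeq2, 2 with 6 libraries, 6 without both promoter-heavy libraries, and 0 to 4 with 1 library left out. The 3 in DTP + AZD5153 over DMSO became 8 without both promoter-heavy libraries, 1 at the stricter threshold, and 1 to 8 with 1 left out. The causes were not tested.

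With a replicate block, 8 regions were called in DTPs over DMSO, where the same-numbered libraries were taken as paired. In the other comparisons, where they were not, the block gave 0 between both DTP groups and 16 in DTP + AZD5153 over DMSO, with 4 higher and 12 lower. The same-number correlations there were 0.267, 0.027 and −0.233, and 0.017, 0.54 and 0.356. The gene sum counts with the block were 0, 0 and 3.

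Of the 112 regions, none that was called turned sign under any alternative run. The called regions were picked for large changes in the same counts, so this is no independent support for them. Of the uncalled ones, up to 31 turned in DTP + AZD5153 over DTPs and up to 16 over DMSO, both without DTP + AZD5153 replicate 3, and up to 9 in DTPs over DMSO. The sums that turned sign were uncalled. Without both promoter-heavy libraries they were the EPHA2 promoter in DTPs over DMSO (−0.0097), EPHB4 outside its promoter in DTP + AZD5153 over DTPs (−0.13), and EPHA2 outside its promoter (−0.0379) and the EPHB2 promoter (−0.20) in DTP + AZD5153 over DMSO. With a loess offset they were the EPHB2 promoter in DTP + AZD5153 over DTPs (0.55) and the EPHB3 promoter in DTP + AZD5153 over DMSO (0.55), and with DESeq2 the EPHB2 promoter over DTPs (0.0006). With 1 library left out, the log2 changes of DTP + AZD5153 over DTPs ranged from −0.0607 to 0.79 for the EPHA4 promoter, −1.34 to 0.38 for the EPHB2 promoter, −0.78 to 1.31 for the EPHB3 promoter, and, outside promoters, −0.73 to 0.0015 for EPHB3, −0.0338 to 0.42 for EPHB4 and −0.10 to 0.80 for EFNA5. Over DMSO they ranged from −0.0227 to 0.48 for EPHA2 outside its promoter and −0.18 to 1.57 for the EPHB2 promoter.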
